A study of Mus musculus with 16 samples.

Results

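The genes described here are 36 genes of pancreatic ducts and of acinar-to-ductal metaplasia, out of 15156 genes in the deposited table. They were taken by symbol from a list, 23 as genes of normal duct cells and 13 as genes induced in duct-like cells by injury. The rule for taking them used no measured value, but the list was chosen with earlier results of these data known. All 36 were in the table, and all 36 passed the filter on low values that left 14220 genes for testing.

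Pancreatic ducts carry the enzymes made by acinar cells to the gut and add bicarbonate and fluid to them. When the pancreas is injured, acinar cells can lose their enzyme programme and take on duct features such as the keratins KRT19 and KRT7 and the transcription factor SOX9, a reversible change called acinar-to-ductal metaplasia. Claudins seal the junctions between duct cells, CFTR and carbonic anhydrase drive bicarbonate secretion, and injured duct-like cells add genes of repair such as Clu, Mmp7, Cd44 and Lcn2.

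Total RNA of whole pancreas was sequenced from 16 mice aged 6 to 10 weeks, 4 per genotype. WT animals are labelled wild type, with no Cre named. DC animals were Daxx fl/fl, MC animals Men1 fl/fl and DMC animals Daxx fl/fl Men1 fl/fl, each with a Pdx1-Cre transgene. All 4 groups had received caerulein, a secretagogue whose repeated injection injures acinar cells, at 50 ug/kg in 4 injections a day on 3 days a week for 3 weeks, and tissue was taken 5 days after the last dose. The comparisons therefore ask how the genotypes differ in injured pancreas, and pancreas without caerulein was not analysed here. The Daxx protein deposits a histone H3 variant at silent chromatin, and menin, the product of Men1, is a scaffold of histone-modifying complexes. Pdx1-Cre acts in cells descended from the Pdx1-expressing pancreatic epithelium (acinar, duct and islet cells), while whole pancreas also holds stroma, vessels and immune cells that keep both genes. In such tissue, fewer cells of a type and less RNA per cell cannot be told apart.

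Depth was 13481063 to 23728309 reads per library, recovered from normalized counts, which are reads divided by a size factor for each library. Men1 was at 35.8% of the WT mean in MC and 45.6% in DMC, whereas Daxx was at 84.9% in DC and 69.1% in DMC. Daxx normalized counts in DC (212 to 245) lay within the WT range (195 to 346), and those in DMC (160 to 225) overlapped it. Log2 differences of Daxx from WT, -0.20 in DC and -0.51 in DMC, did not pass (limma adjusted p = 0.683 and 0.193). Of the 10 most abundant genes, 8 were on a list of acinar genes, and each of the 36 genes was detected in every library. WT replicate 3 stood apart for the duct genes: it was the lowest of the 16 libraries for 16 of the 36, among them 13 of the 23 normal duct genes. It also had the highest level of lymphoid genes, 3.37 on a log2 scale relative to the mean over all libraries. MC replicate 4 was the highest library for 12 of the 36 genes, and DC replicate 1 for 7. Results that rest on WT replicate 3 are given with and without it. WT replicate 3 stood out in values of these same genes, so a call gained without it is not independent support. The labels used here give no sex. Y-linked genes were above their mean over all libraries in 2 WT, 1 DC, 2 MC and 2 DMC libraries, and the DC library was replicate 1. With a term for those libraries in the fit, chosen after seeing the data, limma called as many of the 36 genes in each comparison as without it.

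Levels of different genes were compared per kilobase of exon, as normalized counts per kb averaged over the 16 libraries. Clu, a secreted chaperone, was highest at 7134 per kb, followed by the simple-epithelium keratin Krt18 at 2995, the secreted phosphoprotein Spp1 at 2789, the surface glycoprotein Cd24a at 1805 and Krt8, the partner of Krt18, at 1522. The lowest were the duct transcription factor Onecut1 at 22.4, the bicarbonate cotransporter Slc4a4 at 17.1 and the chloride channel Cftr at 11.4. Spread between animals of a genotype also differed widely, with a within-group SD of the log2 level from 0.200 for Bicc1 to 1.08 for Krt20.

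**Figure D1:**
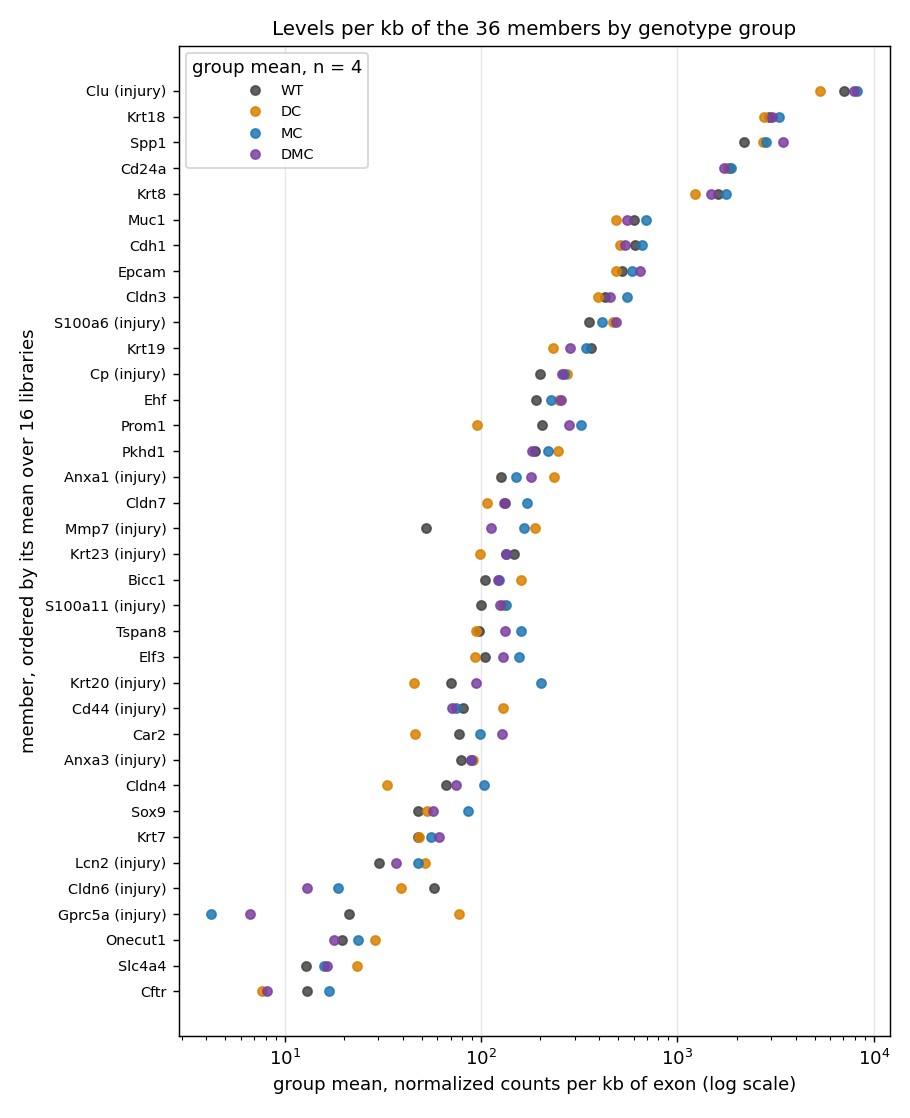
Mean level of each of the 36 genes in each genotype group (normalized counts per kb of exon, log axis; each point is the mean of 4 libraries), ordered by the mean over 16 libraries from Clu at 7134 to Cftr at 11.4. Group means lie close together for most genes, while those of Gprc5a, Cldn6, Krt20, Mmp7 and Prom1 spread most visibly.

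Across the 6 comparisons between genotypes, 3 genes passed the test. Cldn6 was lower in MC and DMC than in WT, and lower in DMC than in DC. Gprc5a was lower in MC and DMC than in DC, and Prom1 was higher in MC than in DC. Neither Gprc5a nor Prom1 passed in a comparison with WT. The test was limma on log2(normalized count + 1) with adjustment over all 14220 genes and a threshold of 0.05, and every log2 difference below is on that scale. In MC against WT 1 of the 36 passed (Cldn6, lower), where 0.781% of all genes did. In DMC against WT the same gene was the 1 that passed, against 0.788% of all genes. In DMC against DC 2 passed (Cldn6 and Gprc5a, both lower), against 0.534% of all genes. In MC against DC 2 passed (Gprc5a lower, Prom1 higher), against 1.37% of all genes. With Men1 status averaged over both Daxx states, in which 8 libraries stand against 8, all 3 passed, against 3.02% of all genes.

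The main limma fit, of all 16 libraries without weights, called none of the 36 genes in comparisons of Daxx status. With library quality weights limma called 3 in DC against WT, where 1.24% of all genes passed. In the main fit 0 of 36 passed in DC against WT, where 0.0211% of all genes did. There 10 of 36 had an unadjusted p under 0.05, as had 11.7% of all genes. On recovered reads edgeR also called 0 there, and DESeq2 called 4, namely Bicc1, Mmp7, Prom1 and Slc4a4, where it called 1.98% of all genes. In DMC against MC 0 of 36 passed limma, edgeR and DESeq2, against 0.00703% of all genes by limma, with 2 at an unadjusted p under 0.05, as were 5.57% of all genes. For Daxx status averaged over both Men1 states limma and edgeR called 0 and DESeq2 called 1 (Cftr), against 0.0703% of all genes by limma and 0.803% by DESeq2, with 11 at an unadjusted p under 0.05, as were 9.23% of all genes. The interaction of both floxed genes, which asks whether the difference with floxed Men1 depends on Daxx, gave 0 calls by limma, edgeR and DESeq2, against 0% of all genes by limma, with 7 at an unadjusted p under 0.05, as were 8.13% of all genes. DC, MC and DMC were each compared with the same WT libraries, so these comparisons share their controls.

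The signs of the 23 normal duct genes differed between comparisons. All 23 had a positive log2 difference in MC against WT, with a median of 0.30 and a range of 0.04 to 0.96, where the median over all genes tested was -0.02 and 47.1% of them were positive. None of the 23 passed limma there, and 4 had an unadjusted p under 0.05, as had 12.7% of all genes. Their median was -0.03 in DC against WT with 9 of 23 positive, 0.20 in DMC against WT with 16 of 23 positive, and -0.26 in DMC against MC with 6 of 23 positive. These comparisons lean on WT replicate 3: without it the medians were 0.19 in MC against WT with 21 of 23 positive, -0.22 in DC against WT with 8 positive, and -0.06 in DMC against WT with 11 positive, the last being a change of sign. The widest median was in MC against DC, 0.47, with 18 of 23 positive, and it uses no WT library. The 13 injury-induced genes had medians of 0.32 in DC against WT, 0.24 in MC against WT and 0.29 in DMC against WT, with 9 of 13 positive in each; without WT replicate 3 these medians were 0.31, 0.14 and 0.12. For the interaction of both floxed genes 11 of the 13 were negative, with a median of -0.47 and none past the test.

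**Figure D2:**
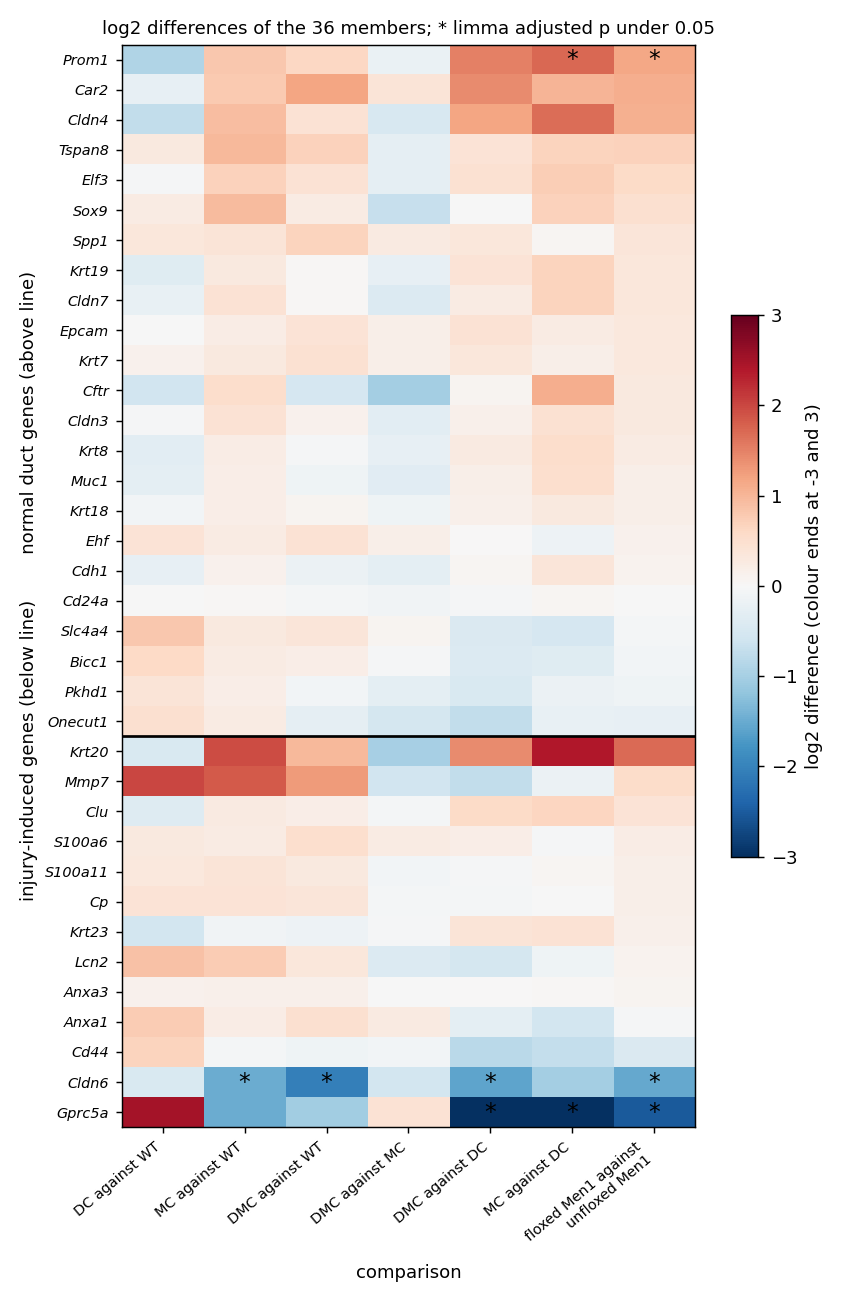
Log2 difference of each of the 36 genes (rows, normal duct genes above the line and injury-induced genes below) in 6 comparisons between genotypes and for Men1 status averaged over Daxx states (columns), with colour running from blue (lower in the first-named group) to red (higher). Asterisks mark a limma adjusted p under 0.05, which 3 genes reached; all 23 normal duct genes are positive in MC against WT, 21 of 23 without WT replicate 3.

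Claudins are the strand-forming proteins of tight junctions, and 4 of them are among the 36 genes. Cldn6, a claudin of embryonic epithelium, was the gene with the lowest p among the 36, and Cldn4, a claudin of normal ducts, lay in the opposite direction. Because of that contrast, the bases just before each gene's start are shown, from RefSeq on GRCm38.p6 (5′ to 3′ on the gene's strand), ending before the first base that GENCODE annotates as transcript. The Cldn6 stretch is chr17:23679115-23679248 on the plus strand and the Cldn4 stretch is chr5:134946935-134947184 on the minus strand. Capitals mark a GC box, searched as GGGCGG on both strands and so read here as its reverse complement CCGCCC.
Cldn6: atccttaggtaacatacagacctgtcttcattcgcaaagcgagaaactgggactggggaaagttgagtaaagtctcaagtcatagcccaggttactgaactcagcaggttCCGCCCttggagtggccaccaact
Cldn4: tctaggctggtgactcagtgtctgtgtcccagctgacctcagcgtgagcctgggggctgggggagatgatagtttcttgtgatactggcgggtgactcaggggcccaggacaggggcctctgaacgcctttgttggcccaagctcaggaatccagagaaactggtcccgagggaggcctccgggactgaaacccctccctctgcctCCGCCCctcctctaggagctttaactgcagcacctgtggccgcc
Each stretch held 1 GC box and no TATA box, searched as TATAAA on both strands. The Cldn6 stretch was cut to 134 bases at the GENCODE start, while the Cldn4 stretch kept all 250. They may therefore not cover like positions, and bases beyond each stretch were not searched. Stretches of the same length in all 32851 RefSeq windows held a GC box in 14.5% of cases at 134 bases and in 32.7% at 250 bases. The Cldn4 stretch was 62% G and C and the Cldn6 stretch 49.3%. A match is a description of these letters only.

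Cldn6 (ENSMUSG00000023906.3, chromosome 17, 23679249 to 23682446, GRCm38) was at 91.9, 164, 54.7 and 85.6 normalized counts in WT replicates 1 to 4 and at 80.8, 49.0, 65.0 and 75.9 in DC. It was at 33.1, 28.6, 35.4 and 31.9 in MC and at 29.1, 27.1, 18.3 and 14.6 in DMC. Every library with floxed Men1 was below every library without it, while the WT and DC ranges overlapped. Cldn6 fell by 1.48 ± 0.30 (SE) in MC against WT (limma adjusted p = 0.0317), which is 2.80-fold lower. In DMC it fell by 2.04 ± 0.30 against WT (limma adjusted p = 0.00592), which is 4.13-fold lower. Against DC its log2 difference in DMC was -1.59 ± 0.30 (limma adjusted p = 0.0265). For Men1 status averaged over Daxx states it was 2.90-fold lower, a log2 difference of -1.53 ± 0.21 (limma adjusted p = 0.000983). In MC against DC the groups did not overlap, but the log2 difference of -1.03 did not pass (limma adjusted p = 0.117).

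The call of Cldn6 in MC against WT was lost without any of the 4 MC libraries and without WT replicate 1 or 2, with limma adjusted p up to 0.0958, whereas in DMC against WT it passed without each of the 16 libraries. An exact permutation test of single libraries gave p = 0.0286 for MC against WT and for DMC against WT, the smallest that 70 assignments allow, and 0.108 once adjusted over the 72 such tests. Cldn6 lies on the chromosome of Daxx, 10.2 Mb from it, and not on that of Men1. Its neighbour Cldn9, another claudin, was at 47.5 ± 17.9, 18.9 ± 12.2, 87.0 ± 31.6 and 67.2 ± 41.1 normalized counts in WT, DC, MC and DMC (SD, n = 4), so its lowest mean was in DC. Cldn9 passed in MC against DC, higher by 2.38 ± 0.56 (limma adjusted p = 0.0484), the direction opposite to that of Cldn6. For Men1 status averaged over Daxx states the Cldn9 difference of 1.38 did not pass (limma adjusted p = 0.0775).

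Cldn4 had 111, 206, 27.7 and 137 normalized counts in WT, 83.2, 45.6, 70.6 and 40.7 in DC, 160, 181, 164 and 246 in MC, and 107, 133, 118 and 185 in DMC. Every MC and every DMC library was above every DC library, and WT replicate 3 was the lowest of all 16. The difference of 1.67 ± 0.44 between MC and DC did not pass the test (limma adjusted p = 0.0828), but without WT replicate 3, which enters only through the shared estimate of spread, it did (limma adjusted p = 0.00515). Over the 16 fits that each left out 1 library, the limma adjusted p ran from 0.00515 to 0.205. Cldn7, a claudin found along the sides of duct cells, followed the same order of MC and DC: 281 to 389 in the 4 MC libraries against 199 to 222 in the 4 DC libraries, with no overlap (log2 difference 0.66, limma adjusted p = 0.171). Cldn3 had group means of 537 ± 215, 494 ± 40.9, 695 ± 151 and 572 ± 173 in WT, DC, MC and DMC (SD, n = 4). The adhesion protein Epcam differed little beside its spread, with group means of 1064 to 1418 normalized counts. Another, Cdh1 (E-cadherin), had group means of 2343 to 3009 and did not pass either. Its log2 difference was 0.36 ± 0.14 in MC against DC (limma adjusted p = 0.255). For Daxx status averaged over Men1 states it was -0.26 ± 0.10 (limma adjusted p = 0.404).

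Of the surface proteins, Gprc5a and Prom1 passed the test. Gprc5a (ENSMUSG00000046733.7, chromosome 6, 135065651 to 135084709), an orphan receptor inducible by retinoic acid, was at 98.5, 165, 133 and 245 normalized counts in DC, and at 6.13, 11.1, 10.1 and 7.98 in MC. In DMC it was at 14.6, 19.6, 3.92 and 17.4, and in WT at 40.7, 9.04, 117 and 9.88. The DC libraries were all above the 8 libraries with floxed Men1, and WT spanned the range, with replicate 3 among the DC values. Gprc5a fell by 3.99 ± 0.66 in MC against DC (limma adjusted p = 0.00793), which is 15.9-fold lower, and by 3.55 ± 0.66 in DMC against DC (limma adjusted p = 0.0255), which is 11.7-fold lower. For Men1 status averaged over Daxx states it was 5.74-fold lower (log2 difference -2.52 ± 0.47, limma adjusted p = 0.00718). MC values rest on 5 to 11 reads per library and DMC values on 3 to 29, so these folds are imprecise.

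Against WT the difference of Gprc5a turned on WT replicate 3. In DC it was higher by 2.50 ± 0.66 with all libraries (limma adjusted p = 0.152), and by 3.21 ± 0.55 without WT replicate 3 (limma adjusted p = 0.0378). Of the 16 fits that each left out 1 library, only that 1 passed for DC. Differences from WT of -1.49 in MC and -1.05 in DMC did not pass (limma adjusted p = 0.356 and 0.534), and without WT replicate 3 they were -0.78 and -0.34 (limma adjusted p = 0.679 and 0.833). The call in MC against DC held without each of the 16 libraries, and that in DMC against DC in 10 of 16.

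Prom1 (ENSMUSG00000029086.15, chromosome 5, 43993620 to 44102032), a membrane protein of duct cell protrusions also known as CD133, was at 702, 672, 705 and 668 normalized counts in DC. It was at 2142, 1789, 2027 and 3314 in MC and at 1427, 2699, 2204 and 1736 in DMC. WT replicates 1, 2 and 4 were at 1734, 1683 and 1941, beside 475 in WT replicate 3. The 4 DC libraries lay within a narrow band below every MC and DMC library, and WT replicate 3 was lower still. Prom1 rose by 1.71 ± 0.35 in MC against DC (limma adjusted p = 0.0237), which is 3.28-fold, and by 1.16 ± 0.25 for Men1 status averaged over Daxx states (limma adjusted p = 0.0165), which is 2.24-fold. In DMC against DC the groups did not overlap, but the log2 difference of 1.51 did not pass (limma adjusted p = 0.0690). In DC against WT the log2 difference was -0.90 with all libraries (limma adjusted p = 0.327) and -1.38 without WT replicate 3 (limma adjusted p = 0.0160). Of the 16 fits that each left out 1 library, only that 1 passed. Differences from WT of 0.81 in MC and 0.61 in DMC did not pass (limma adjusted p = 0.335 and 0.485). With 1 library left out they were as low as 0.34 and 0.14. The call in MC against DC was lost without DC replicate 2, 3 or 4 or MC replicate 1, 2 or 4, with limma adjusted p of 0.0518 to 0.0731.

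**Figure D3:**
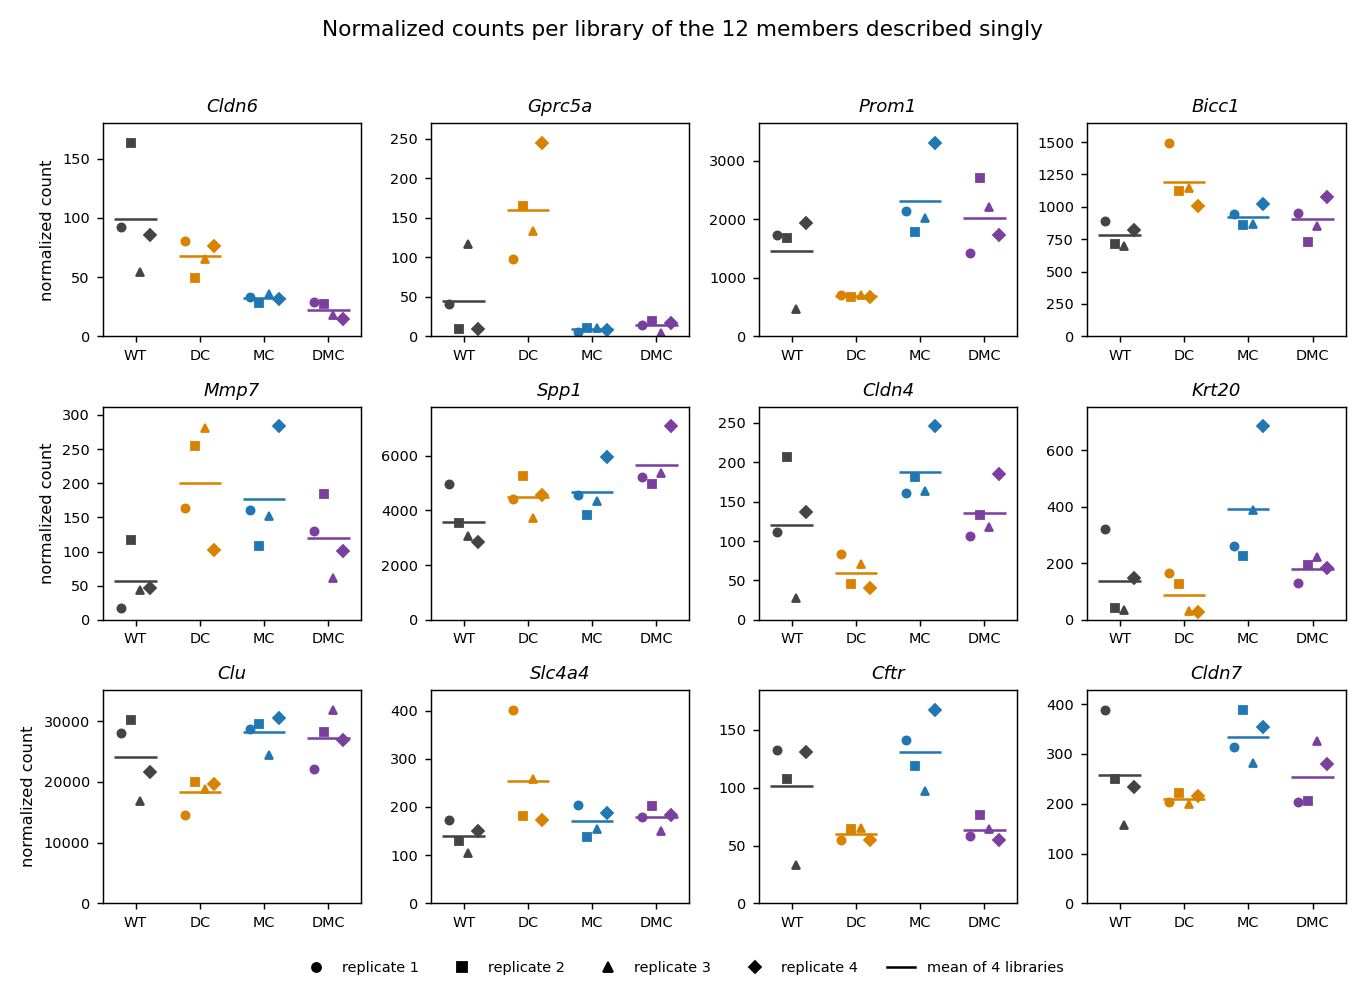
Normalized counts of 12 of the genes in each library, by genotype group (points, with a shape for each replicate number; lines are means of 4 libraries; each panel has its own axis from 0). Cldn6 is below 36 in all 8 libraries with floxed Men1, Gprc5a is at 98.5 or above in all 4 DC libraries, and Prom1 lies between 668 and 705 in DC.

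The other surface proteins did not pass in any comparison. Cd44, a hyaluronan receptor of injured epithelium and of leukocytes, had means of 549 ± 234, 874 ± 405, 503 ± 111 and 483 ± 135 in WT, DC, MC and DMC. Muc1, the apical mucin of ducts, had means of 1407 ± 214, 1144 ± 179, 1615 ± 253 and 1294 ± 302 in the same order. Cd24a was nearly level over the groups at means of 4460 to 4811, and the tetraspanin Tspan8 ranged from 62.6 to 403 within WT alone.

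Among the keratins, Krt20 showed the widest difference and Krt19, the most used duct marker, was dominated by a single WT library. Krt20, a keratin of mature gut epithelium, was at 320, 40.7, 34.3 and 148 normalized counts in WT and at 165, 127, 31.9 and 27.5 in DC. It was at 262, 227, 388 and 685 in MC and at 129, 193, 221 and 182 in DMC. All MC libraries were above all DC and all DMC libraries, while WT covered most of the range. The MC against DC difference of 2.41 ± 0.67 did not pass (limma adjusted p = 0.0966), but it did without DC replicate 1 (limma adjusted p = 0.0477). DC replicate 1 was the DC library nearest to MC, so that call is not independent support. Over the 16 fits that each left out 1 library, the limma adjusted p ran from 0.0477 to 0.243. Krt19 was at 1600 in WT replicate 1 and as low as 223 in another WT library, and its means were 676 ± 624, 431 ± 217, 634 ± 84.3 and 529 ± 53.9 in WT, DC, MC and DMC. Krt8 did not overlap between MC (3052 to 3861) and DC (2020 to 2802), and neither did the injury keratin Krt23 (179 to 266 against 122 to 172). Krt18 and Krt7 overlapped between all groups, with means of 3949 to 4745 and of 335 to 432.

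The proteins of bicarbonate secretion did not move as a group. Cftr, the chloride and bicarbonate channel, was at 133, 108, 33.5 and 131 normalized counts in WT and at 141, 119, 97.0 and 168 in MC. It was at 55.1, 63.9, 65.0 and 55.0 in DC and at 58.3, 76.5, 64.0 and 54.8 in DMC. Both groups with floxed Daxx were below MC in every library, and below WT in every library other than WT replicate 3. For Daxx status averaged over Men1 states Cftr had a log2 difference of -0.80 ± 0.24 that did not pass with all libraries (limma adjusted p = 0.319). Without WT replicate 3 Cftr fell by 1.03 (limma adjusted p = 0.00388), and without WT replicates 2 and 3 by 1.08 (limma adjusted p = 0.00556). Over the 16 fits that each left out 1 library, its limma adjusted p ran from 0.00388 to 0.548. DESeq2 on all 16 libraries also called it (DESeq2 adjusted p = 0.0253).

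Slc4a4, the basolateral sodium bicarbonate cotransporter, was at 173, 129, 104 and 149 in WT, 402, 182, 257 and 173 in DC, 203, 138, 155 and 186 in MC, and 179, 202, 150 and 183 in DMC. DC was the highest group by mean, through replicates 1 and 3, and its lowest library lay within the WT range (log2 difference from WT 0.80, limma adjusted p = 0.195). The carbonic anhydrase gene Car2 had means of 188 ± 225, 112 ± 59.1, 240 ± 162 and 308 ± 166 in WT, DC, MC and DMC, so its spread exceeded most of its differences.

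Of the secreted products, Mmp7, Spp1, Cp and Lcn2 had their lowest mean in WT and Clu had it in DC, and none passed the test with all 16 libraries. Mmp7, a matrix protease made by metaplastic ducts, was at 17.7, 117, 43.2 and 46.1 normalized counts in WT and at 164, 255, 281 and 102 in DC. It was at 160, 108, 153 and 284 in MC and at 130, 185, 61.4 and 101 in DMC. WT replicate 2 alone reached the values of the other groups. The log2 difference from WT was 2.02 ± 0.49 in DC (limma adjusted p = 0.133) and 1.85 in MC (limma adjusted p = 0.0935), and without WT replicates 2 and 3 DC was higher by 2.66 (limma adjusted p = 0.0462) and MC by 2.49 (limma adjusted p = 0.0426). Without WT replicate 2 alone, MC was higher by 2.30 (limma adjusted p = 0.0425), while DC, higher by 2.47, did not pass (limma adjusted p = 0.1497). WT replicate 2 was the WT library nearest to the other groups for Mmp7, so calls gained without it are not independent support.

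Spp1, or osteopontin, a phosphoprotein of ducts and macrophages, was at 4947, 3522, 3050 and 2842 in WT, 4408, 5247, 3711 and 4549 in DC, 4571, 3842, 4324 and 5933 in MC, and 5218, 4947, 5357 and 7079 in DMC. The lowest DMC library was level with the highest WT library, replicate 1, and the other DMC libraries were above it. The log2 difference of 0.67 did not pass (limma adjusted p = 0.115). Without WT replicate 1 the difference of 0.84 passed (limma adjusted p = 0.0381). That library was the WT library nearest to DMC, so the call is not independent support. Over the 16 fits that each left out 1 library, the limma adjusted p ran from 0.0381 to 0.364. Clu ranged from 16811 to 30226, 14533 to 20031, 24407 to 30553 and 22122 to 31948 in WT, DC, MC and DMC. The DC libraries were below all libraries with floxed Men1 (MC against DC 0.64, limma adjusted p = 0.116). Cp, the ferroxidase ceruloplasmin, was at 1832 to 1983 in WT and above that in every MC (2072 to 2912) and DMC (2166 to 3125) library. DC had the highest mean of Cp, 2606, with values of 1831 to 3183 that overlapped WT. Log2 differences from WT of 0.42 in DC, 0.40 in MC and 0.35 in DMC did not pass (limma adjusted p = 0.316, 0.295 and 0.364). Lcn2, an iron-binding protein of injured epithelium and neutrophils, had means of 79.0 ± 41.9, 136 ± 33.7, 125 ± 35.2 and 97.1 ± 39.4 in WT, DC, MC and DMC.

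The transcription factors and tubule genes of ducts did not pass either. Bicc1, an RNA-binding protein of duct and kidney tubules, was at 895, 712, 697 and 821 normalized counts in WT and at 1497, 1124, 1147 and 1005 in DC. The DC libraries were all above the WT libraries, while MC (860 to 1019) and DMC (728 to 1075) lay between or across them. The difference of 0.60 ± 0.14 did not pass by limma (adjusted p = 0.117), but DESeq2 called it (DESeq2 adjusted p = 0.00854). Sox9, the factor that maintains duct identity, had means of 197 ± 95.0, 220 ± 46.2, 355 ± 54.1 and 234 ± 107 in WT, DC, MC and DMC, and MC did not overlap DC (log2 difference 0.70, limma adjusted p = 0.362). The epithelial factor Elf3 likewise did not overlap between MC (260 to 428) and DC (176 to 244). Its relative Ehf had means of 1064 ± 236, 1398 ± 76.3, 1264 ± 252 and 1421 ± 139 in WT, DC, MC and DMC. Onecut1 had means of 73.7 to 118 and Pkhd1, a gene of primary cilia, of 2589 to 3522, both highest in DC.

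Of the calcium-binding injury genes, Anxa1, Anxa3 and S100a6 were highest in DC replicate 1. Anxa1, an annexin of epithelium and leukocytes, was at 447 to 1272 in DC and 314 to 446 in WT, without overlap. S100a6 reached 1268 in DC against group means of 484 to 663, and Anxa3 and S100a11 had group means of 290 to 331 and 51.0 to 68.5. DC replicate 1 was the highest library for 5 of the 13 injury-induced genes. The same library had the highest levels of mesothelial (1.52), macrophage (1.03), fibroblast (0.96) and endothelial (0.52) genes, and the lowest of acinar genes (-1.12), each as a mean log2 level relative to the mean over all libraries. The part of these cell types in the injury gene values was not tested.

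Counting genes whose libraries did not overlap between groups, MC against DC had the most. There 10 of the 36 genes were higher in every MC library than in any DC library, where 4.64% of all genes were, and 2 were lower, where 4.29% were. The 10 were Clu, Krt8, Prom1, Cldn7, Krt23, Elf3, Krt20, Cldn4, Sox9 and Cftr, 7 of them normal duct genes. Where 8.93% of all genes did not overlap in either direction, the 36 thus gave 12. In DMC against DC 3 were higher (Clu, Prom1 and Cldn4) and 2 lower, where 6.35% of all genes did not overlap in either direction. In DMC against MC 2 were lower (Krt20 and Cftr), where 4% of all genes did not overlap. Against WT the counts were 2 for DC (Anxa1 and Bicc1), 2 for MC (Cp and Cldn6) and 3 for DMC (Spp1, Cp and Cldn6), where 5.5%, 7.38% and 8.21% of all genes did not overlap.

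The mean log2 level over the 23 normal duct genes, relative to the mean of all libraries, ran from -0.75 to 0.43, -0.23 to -0.07, 0.13 to 0.55 and -0.17 to 0.22 in WT, DC, MC and DMC. The MC libraries were above every DC library, and WT spanned both through replicates 1 and 3. The level over the 13 injury-induced genes was -0.37 to -0.07, -0.06 to 0.65, -0.22 to 0.35 and -0.46 to 0.09 in WT, DC, MC and DMC. Every DC library was above every WT library by a small margin, while the DC summed count, carried mostly by Clu, had a median of 24109 against 29194 in WT. Fibroblast genes separated the same groups, at -0.41 to -0.27 in WT and -0.13 to 0.96 in DC. All 12 fibroblast genes had a positive log2 difference in DC against WT, with a median of 0.66, where 47.3% of all genes were positive. Of the 12, 0 passed limma and 9 had an unadjusted p under 0.05, as had 11.7% of all genes. The part of fibroblast genes in the injury gene level was not tested.

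Genes of gastric glands moved with Men1 status as well. A list of 8 genes of gastric glands (such as the pepsinogen gene Pgc and the mucin gene Muc6) ran from -2.64 to -1.45 in WT and from -3.32 to -1.54 in DC, against 1.12 to 3.37 in MC and 0.82 to 3.37 in DMC. For Men1 status averaged over Daxx states all 8 were positive and 7 passed limma. Of all genes, 49.1% were positive and 3.02% passed there. Of the 8, Cym was at 0 in 3 libraries. Neutrophil genes ran from -1.58 to -0.48, -0.45 to 3.45, -0.24 to 0.91 and -1.42 to -0.24 in WT, DC, MC and DMC. Among these 8 neutrophil genes Ngp was at 0 most often, in 7 libraries. Lymphoid genes ran from -1.74 to 3.37 in WT. Islet genes overlapped between all groups, from -1.55 to 0.13, -1.35 to 1.13, -0.99 to 1.22 and -0.14 to 1.88 in WT, DC, MC and DMC. For Men1 status averaged over Daxx states 13 of the 14 islet genes had a positive difference, with a median of 1.07, and 1 passed limma, beside the same shares of all genes. A list of 7 liver genes had 6 tested. For Men1 status 4 of the 6 were positive and 3 passed limma, all higher, where 3.02% of all genes passed, and the median over the 6 was 0.90. Their level ran from -0.80 to -0.08, -0.62 to 0.39, -0.37 to 0.14 and 0.25 to 1.16 in the same order, so that DMC was above WT and MC in every library. Whether cells of these kinds contributed to the duct gene differences was not tested.

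**Figure D4:**
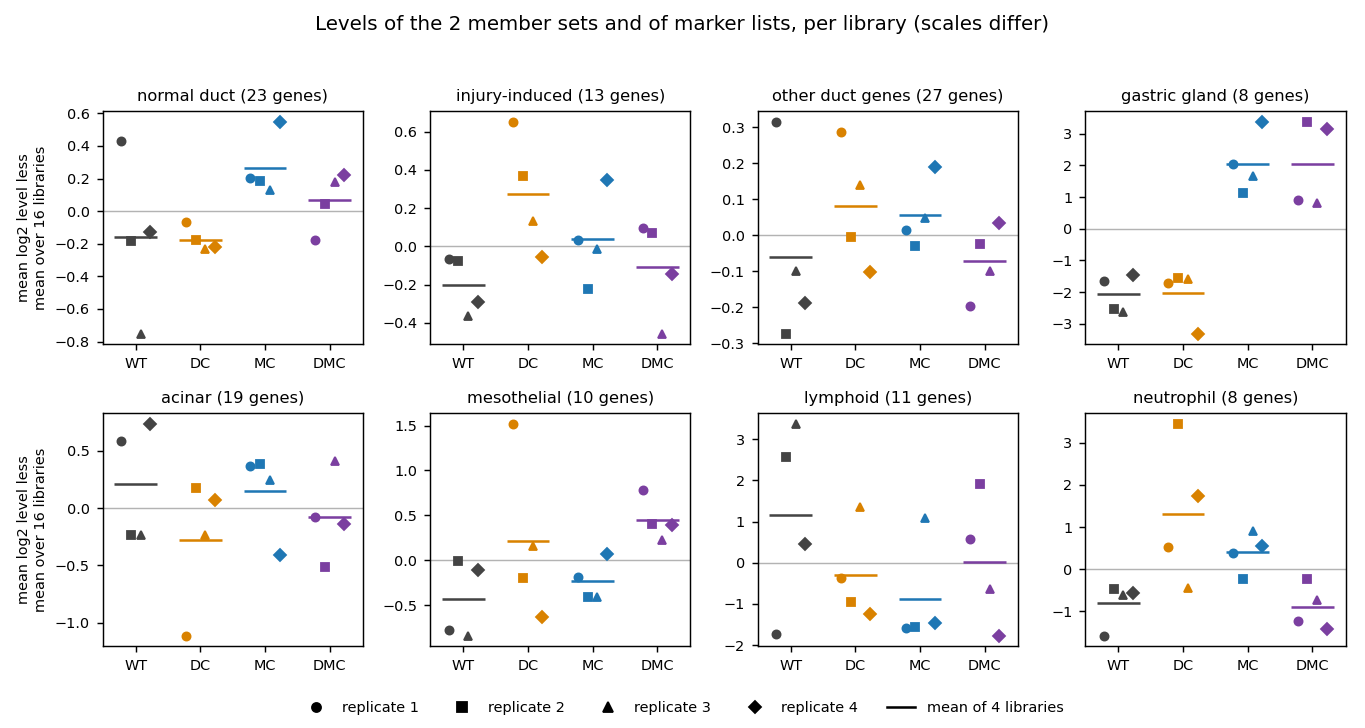
Mean log2 level of each gene list per library, relative to the mean over 16 libraries (points, a shape for each replicate number; lines are means of 4 libraries; vertical scales differ between panels). Normal duct genes lie higher in every MC library (0.13 to 0.55) than in any DC library (-0.23 to -0.07), with WT replicate 3 lowest at -0.75, and gastric gland genes separate the groups by Men1 status.

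Further genes of ducts and of the signals that drive metaplasia were taken from 2 other lists. Of 27 other duct genes 25 were tested, and none passed limma in any comparison between genotypes, with 5 to 7 at an unadjusted p under 0.05 in each comparison with WT, where 11.7% to 12.7% of all genes were. For Men1 status averaged over Daxx states 2 of the 25 passed, where 3.02% of all genes did. Sctr, the secretin receptor that starts duct bicarbonate secretion, fell by 1.35 ± 0.26 (limma adjusted p = 0.00858), with means of 52.4 ± 22.7, 51.0 ± 15.6, 18.9 ± 5.30 and 19.9 ± 7.68 in WT, DC, MC and DMC. Aqp5, a water channel, rose by 0.87 ± 0.22 (limma adjusted p = 0.0429), with means of 56.8 ± 16.8, 108 ± 35.0, 144 ± 72.2 and 149 ± 37.8 in the same order.

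Of 18 signalling genes 16 were in the table and tested, and 1 passed in each of MC against WT, DMC against DC and MC against DC, all lower, where 0.781%, 0.534% and 1.37% of all genes passed. For Men1 status averaged over Daxx states 2 passed, Notch1 lower and Hbegf higher, where 3.02% of all genes did. Notch1, a receptor active in metaplasia, fell by 1.17 ± 0.22 in MC against DC (limma adjusted p = 0.0163) and by 1.12 ± 0.22 in DMC against DC (limma adjusted p = 0.0304). Its means were 2550 ± 339, 3365 ± 1059, 1432 ± 212 and 1500 ± 330 in WT, DC, MC and DMC. Among the ligands of the EGF receptor, Hbegf rose by 0.77 for Men1 status averaged over Daxx states (limma adjusted p = 0.00943), from means of 33.2 in WT and 31.4 in DC to 58.9 in MC and 53.7 in DMC. Tgfa, another such ligand, fell by 0.88 in MC against WT (limma adjusted p = 0.0342), with means of 281 ± 69.7, 210 ± 8.32, 151 ± 29.9 and 221 ± 33.7 in WT, DC, MC and DMC.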

How the data were processed

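Strand-specific libraries of total RNA from whole pancreas were made from 4 mice per genotype, per the labels' protocols, which call the animals biological replicates. Alignment used STAR 2.6.0b and genome GRCm38, and DESeq2 is named too, per the submitters' processing notes; no source used here gives the counter or the annotation. The authors deposited a signal per gene, its read count over a size factor of the library (0.566 to 1.63), called a normalized count here. All values (100%) were whole multiples of a library's step within 0.01 reads, so reads were recovered from them. A count of 0 allows up to 3 reads, or 1.84 to 5.30 normalized counts, for counting error only. Coordinates and exon lengths came from GENCODE release 21 on GRCm38, in which 15152 of 15156 gene identifiers were found. RefSeq promoter sequences covered 26 of the 36 genes.

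Genes with at least 10 normalized counts in at least 4 libraries (14220) were fitted as log2(normalized count + 1) with limma 3.58.1 (trend) in R 4.3.3, all 16 libraries in a single fit, with 9 contrasts and Benjamini-Hochberg adjustment within each at 0.05. Exact permutation tests were two-sided. edgeR 4.0.16 and DESeq2 1.42.0 were run on recovered reads as alternatives, beside other pseudocounts, filters, scalings, weights, a replicate block, fits of the compared groups alone and leaving out libraries; a term for high Y-linked genes was added after seeing the data. The fits were tested on simulated data. The genes, lists, tests and rule for naming were chosen with earlier results of these data known. Values per library are given for genes past the threshold in any contrast, filled up to 12 by the smallest unadjusted p between 2 genotypes; other duct and signalling genes are named where past the threshold. The Cldn6 and Cldn4 promoters, Cldn9 and the genes listed as not overlapping were chosen after their values were seen.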

Additional observations from a re-analysis of the deposited data

Results flagged for a closer look

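In groups of 4 libraries, 2 of the 48 combinations of a gene and a group held a library far from the other 3 by Dixon's test, and chance marks about 1 in 20. Both were in WT replicate 3. Prom1 was at 474.8 normalized counts there, beside 1734, 1683 and 1941 in the other WT libraries. Cftr was at 33.45 there, beside 132.6, 107.6 and 130.7.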

How the results depend on the processing

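The numbers of the 36 genes past the threshold depended on the setting. With library quality weights they were 3 in DC against WT, 2 in DMC against WT, 7 in DMC against DC, 6 in MC against DC and 7 for Men1 status averaged over Daxx states, where 1.24%, 1.72%, 11.6%, 7.26% and 9.81% of all genes passed. With DESeq2 they were 4, 2, 4, 5 and 5 in the same order, with 3 in MC against WT and 1 for Daxx status, where 1.98%, 2.33%, 2.43%, 3.52%, 5.71%, 2.75% and 0.803% of all genes passed. Without WT replicates 2 and 3 they were 2 in DC against WT, 2 in MC against WT, 4 in DMC against DC, 5 in MC against DC and 2 for Daxx status, against 0.288%, 0.605%, 0.823%, 1.7% and 0.331% of all genes. A filter on a mean of 50 normalized counts left 0 in MC against WT, against 0.546% of all genes. With only the compared groups in the fit there were 0 in MC against WT, 0 in DMC against WT and 6 in MC against DC, against 0.471%, 0.113% and 1.88% of all genes. A block on the replicate number left 0 in MC against WT and 0 in DMC against DC, against 0.323% and 0.26% of all genes. Of 24 same-numbered pairs of libraries 11 had a correlation above 0.1 (range -0.371 to 0.384). Pairs with different numbers ran from -0.474 to 0.524. Such correlations cannot decide whether same-numbered animals were paired, and the main fit treated them as unpaired. Leaving out each library in turn gave 0 to 2 in DC against WT, 0 to 1 in MC against WT, 1 to 2 in DMC against WT, 0 to 4 in DMC against DC, 1 to 4 in MC against DC, 3 to 7 for Men1 status and 0 to 2 for Daxx status, where the shares of all genes ran from 0% to 0.134%, 0.267% to 1.33%, 0.12% to 1.29%, 0.0985% to 1.32%, 0.345% to 1.78%, 1.71% to 5.7% and 0.0281% to 0.155%. A term for high Y-linked genes, chosen after seeing the data, changed none of the 9 counts. For Men1 status Cldn6, Gprc5a and Prom1 passed in all 11 other settings and without each of the 16 libraries. No direction reversed for the 12 named genes in the comparison each is named for. Over all their comparisons, 45 of 2988 differences changed sign, none of which passed the threshold in either setting. Without WT replicate 3 the DMC against WT difference went from 0.44 to -0.15 for Cldn4 and from 0.03 to -0.18 for Cldn7, and without WT replicate 1 that of Krt20 in DC against WT went from -0.45 to 0.15. The normal duct median in DMC against WT went from 0.20 to -0.06 without WT replicate 3. The cause of these changes was not tested. At the depth of 13481063 reads or more, Gprc5a had 5 to 11 reads in MC libraries and 3 to 29 in DMC libraries, beside the floor of 3 reads.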
